A study of Mus musculus with 26 samples.

Results

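The data described here are the transcript levels of 30 genes of cholesterol and fatty acid synthesis in mouse embryonic stem cells (ESCs), from an RNA-seq table of 24421 genes. The members were taken by name: 8 genes that carry acetyl-CoA to farnesyl diphosphate through mevalonate, 11 that carry it on through squalene to cholesterol, 4 regulators or carriers of sterols, and 7 genes of fatty acid synthesis and desaturation. All 30 had enough reads to be tested, as did 15238 genes in all. Of these, 3 lie on chromosomes 8 and 14 (Mvd, Msmo1 and Fdft1), where whole chromosomes shifted between groups, and these 3 are described apart from the other 27.

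The study compared ESC clones that have or lack ERR beta, an orphan nuclear receptor encoded by Esrrb that takes part in ESC self-renewal. WT_mock clones were wild type and expressed no added receptor. The other 6 groups were ERR beta -/- clones: KO_mock had none added, KO_ERRb_wt expressed wild-type ERR beta, KO_ERRb_DBDm3 a mutant deficient in DNA binding, KO_ERRb_DBDm6 a mutant deficient in binding TFIIH (the general transcription factor complex that opens promoters), KO_ERRb_AF2M6 a mutant deficient in coactivator binding, and KO_ERRg_wt the related receptor ERR gamma. All 7 groups, mock clones included, were grown with doxycycline at 2 µg/ml for 3 days, which switches on the constructs, in N2B27 medium with the inhibitors PD and CH. The growth protocol also names LIF in the medium and the design text does not. Each group held 2 clones, which were the replicates (n = 2), and 26 libraries were made from the 14 clones, with 2 per clone except in KO_ERRg_wt, which had 1.

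Cholesterol is built from acetyl-CoA by a chain of enzymes that is controlled mainly at transcription. When sterols run low, the escort protein SCAP carries SREBP2 (Srebf2) from the endoplasmic reticulum to be cut, and the freed factor enters the nucleus and activates the sterol genes, usually together with NF-Y, which binds CCAAT boxes. When sterols are plentiful, INSIG1 holds the complex back. SREBP1 (Srebf1) works in the same way with a leaning towards fatty acid synthesis, in which ACC1 (Acaca) makes malonyl-CoA, fatty acid synthase (Fasn) builds palmitate, and elongases and desaturases (Elovl6, Scd1, Scd2, Fads1, Fads2) lengthen it and add double bonds.

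Promoters are shown first because many of the sterol enzymes moved together. RefSeq start sites of GRCm38.p6 (mm10) were matched by symbol for 22 of the 30 members, and each window covers the start site and the stretch before it. The motifs searched, on both strands, were CCAAT, a sterol regulatory element written TCACNCCAC, the ERR response element TCAAGGTCA, and its core AAGGTCA, which is contained in it. The first set below holds members whose mutant clones lay below both reference groups (Mvk, Hsd17b7, Sc5d and Msmo1), the second holds members whose mutant clones did not (Idi1, Cyp51 and Hmgcs1), and capitals mark every motif match on either strand. Their positions, in the order of the lines, are chr5:114444019-114444318 (plus strand), chr1:169969156-169969455 (minus), chr9:42264251-42264550 (minus), chr8:64733529-64733828 (minus), chr13:8885356-8885655 (plus), chr5:4104648-4104947 (minus) and chr13:119690101-119690400 (plus).
Mvk: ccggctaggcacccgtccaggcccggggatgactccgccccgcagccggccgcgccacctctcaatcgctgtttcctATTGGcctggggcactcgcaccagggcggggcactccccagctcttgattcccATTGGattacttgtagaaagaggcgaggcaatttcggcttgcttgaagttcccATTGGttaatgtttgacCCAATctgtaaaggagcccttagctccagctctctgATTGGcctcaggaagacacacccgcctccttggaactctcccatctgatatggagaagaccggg
Hsd17b7: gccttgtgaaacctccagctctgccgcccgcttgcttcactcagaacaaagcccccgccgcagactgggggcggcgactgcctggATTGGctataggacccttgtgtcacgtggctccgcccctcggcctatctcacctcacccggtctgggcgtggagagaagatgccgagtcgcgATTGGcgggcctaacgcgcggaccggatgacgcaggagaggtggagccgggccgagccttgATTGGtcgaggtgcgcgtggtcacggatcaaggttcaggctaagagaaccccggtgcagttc
Sc5d: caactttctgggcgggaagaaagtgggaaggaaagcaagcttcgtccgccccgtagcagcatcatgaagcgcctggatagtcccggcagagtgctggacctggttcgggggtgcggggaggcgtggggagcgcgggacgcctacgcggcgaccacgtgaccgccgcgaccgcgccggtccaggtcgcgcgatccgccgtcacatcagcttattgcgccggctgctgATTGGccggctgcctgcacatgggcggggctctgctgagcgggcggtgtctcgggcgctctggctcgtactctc
Msmo1: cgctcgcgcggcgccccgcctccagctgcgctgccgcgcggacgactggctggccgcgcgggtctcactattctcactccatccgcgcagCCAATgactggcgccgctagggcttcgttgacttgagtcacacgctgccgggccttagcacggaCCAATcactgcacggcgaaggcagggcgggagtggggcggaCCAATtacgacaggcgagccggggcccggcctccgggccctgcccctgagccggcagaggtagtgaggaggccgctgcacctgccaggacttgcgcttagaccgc
Idi1: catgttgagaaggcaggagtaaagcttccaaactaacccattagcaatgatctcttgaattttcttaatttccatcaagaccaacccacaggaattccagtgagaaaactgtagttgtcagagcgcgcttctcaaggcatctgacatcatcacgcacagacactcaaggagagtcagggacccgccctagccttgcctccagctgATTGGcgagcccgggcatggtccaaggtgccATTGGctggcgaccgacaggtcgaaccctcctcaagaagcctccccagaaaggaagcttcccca
Cyp51: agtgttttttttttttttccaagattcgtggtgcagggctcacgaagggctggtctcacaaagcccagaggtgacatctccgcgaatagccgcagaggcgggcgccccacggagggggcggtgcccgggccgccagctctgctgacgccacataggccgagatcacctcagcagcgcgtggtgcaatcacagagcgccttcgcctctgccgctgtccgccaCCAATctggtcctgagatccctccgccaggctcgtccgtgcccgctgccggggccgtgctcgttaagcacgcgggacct
Hmgcs1: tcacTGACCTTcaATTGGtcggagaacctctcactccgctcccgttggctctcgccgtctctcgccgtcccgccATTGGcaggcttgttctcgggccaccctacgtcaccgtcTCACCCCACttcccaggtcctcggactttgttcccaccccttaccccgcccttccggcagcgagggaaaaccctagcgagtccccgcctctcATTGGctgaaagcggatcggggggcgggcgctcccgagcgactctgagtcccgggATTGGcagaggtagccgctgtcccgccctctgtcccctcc
CCAAT was found in 18 of the 22 members with a promoter (81.8%), against 41.1% of all 27025 genes with one and 43% of the tested genes. It was in 8 of 10 members whose mutant clones lay below both references and in 10 of the 12 others. The sterol regulatory element was matched in 1 of 22 (Hmgcs1, 137 bases before the start), against 1.44% of genes. Only the spelling TCACNCCAC was searched, so an element spelled otherwise was not counted. TCAAGGTCA was in 0 of 22, against 0.466% of genes, and AAGGTCA was in 2 of 22 (Hmgcs1 and Dhcr7), against 5.38%. A match is a description of the letters in a window and not of binding.

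Library totals ran from 21276790 to 30021667 counts, and levels are given as CPM, counts scaled to a common library size after TMM, a scaling that sets the bulk of genes equal between clones. Esrrb read 603 and 560 CPM in WT_mock and 277 and 276 in KO_mock, so the locus was still transcribed in the knockout, and the counts do not separate it from a construct. Esrrg read 229 and 124 CPM in KO_ERRg_wt and at most 0.24 in every other clone. The 10 ESC markers summed to between 3150 and 3800 CPM in all clones and 9 fibroblast feeder markers to between 1.1 and 7.15, with Postn at 0. The sum hides single ESC markers that moved. In DBDm6 against KO_mock they ran from -1.24 (Utf1) to 1.17 (Sox2) on the log2 scale. There 3 of the 10 were called higher and 5 lower, against 20.8% and 20.6% of all genes. The 8 trophoblast markers summed to 59 to 79.2 CPM in WT_mock, KO_mock and KO_ERRb_wt, to 119 to 190 in the 6 mutant clones and to 106 and 114 in KO_ERRg_wt. Tfap2c alone, which ESCs also express, ran from 20.6 to 181 CPM over the clones, Krt8 from 1.89 to 32.2 and Krt18 from 1.84 to 17.6. Eomes ran from 2.82 to 10.3 CPM, Krt7 from 0.126 to 6.27 and Cdx2 from 0.179 to 5.55, while Elf5 and Hand1 stayed at or under 0.144. Single markers went both ways, as in DBDm3 against KO_mock, from -2.22 (Cdx2) to 2.69 (Krt7) on the log2 scale. The 8 primitive endoderm markers summed to 397 and 383 CPM in KO_ERRg_wt and to between 104 and 318 elsewhere, these extremes being the DBDm3 clones 9-8 and 9-6. Sparc alone ran from 102 to 388 CPM, Gata4 from 0.495 to 7.41 and Sox7 from 0 to 5.01. Gata6, Sox17, Dab2, Pdgfra and Foxa2 stayed at or under 0.599 CPM. Sox7 had the highest log2 fold change of this list in KO_ERRg_wt against KO_mock (4.88). It had the lowest in DBDm3, DBDm6 and AF2M6 against KO_ERRb_wt (-4.17, -5.02 and -5.09). The part of these sums in the results below was not tested. In bulk RNA, fewer cells of a type and less RNA per cell cannot be told apart.

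Among the members, Scd2 had the highest level per length (a mean of 294 RPKM, that is CPM divided by exon length in kilobases, over the 14 clones), followed by Fdps (155), Hmgcs1 (122) and Msmo1 (118). The lowest were Acat3 (1.45 RPKM), Hsd17b7 (4.44) and Idi1 (5.64). The median member differed by 0.09 (log2) between the 2 libraries of a clone and by 0.14 between the 2 clones of a group, while its group means spanned 0.74. The largest gap between libraries was 2.11, in Acat3, the member with the fewest reads. In the test for any difference among the 7 groups, 26 of 30 members were called at an adjusted p under 0.05, against 69.6% of all tested genes. The members not called were Idi1 (adjusted p = 0.0627), Fdps (0.0534), Sqle (0.228) and Srebf1 (0.265).

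**Figure D1:**
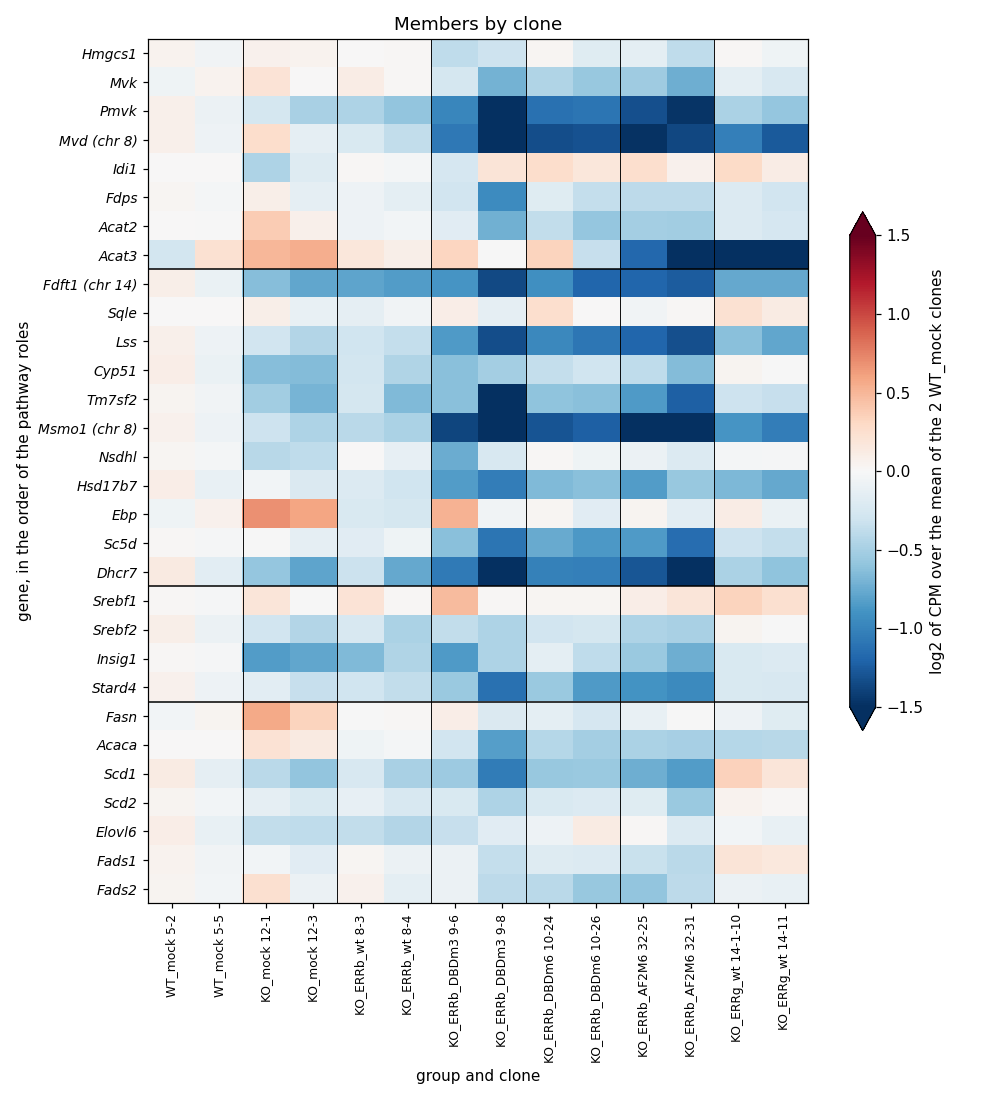
Each cell is the log2 ratio of a member's CPM in one clone to the mean of the 2 WT_mock clones, with members in rows by pathway role and the 14 clones in columns by group. Pmvk, Lss, Msmo1, Sc5d and Dhcr7 are lowest in the 6 mutant clones, and Sqle differs little between groups.

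The comparison of KO_mock with WT_mock sets knockout clones beside wild-type clones. The loss of ERR beta and other differences between these clones cannot be told apart. Insig1 (the sterol sensor that retains SCAP), Cyp51 (lanosterol demethylase), Dhcr7 (the last step to cholesterol), Scd1 and Srebf2 were lower in the knockout, while Fasn and Ebp (a sterol isomerase) were higher. In all, 9 of 30 members were lower and 2 higher, where 37.4% of all genes were called (19.4% lower, 18% higher). Of the 27 members off chromosomes 6, 8 and 14, 7 were lower and 2 higher, against 17.9% lower among the 13192 tested genes there. The count of calls is near the background, and the median member moved by -0.15 against 0 for all genes. Of the 8 genes of the mevalonate steps 0 were called. Pmvk among them just missed the threshold (-0.38 ± 0.14, adjusted p = 0.0569) and passed it in 5 of 7 alternative settings. Of the 11 genes from squalene to cholesterol 5 were lower, or 3 of the 9 off chromosomes 8 and 14.

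Insig1 read 161 and 156 CPM in WT_mock and 89 and 92.2 in KO_mock. The clones did not overlap, and the fold change was -0.80 ± 0.12 (log2, ± standard error, adjusted p = 0.000868). Cyp51 read 236 and 206 CPM in WT_mock and 142 and 141 in KO_mock, again without overlap (-0.65 ± 0.10, adjusted p = 0.000852). These were, with Fdft1, the 3 calls kept whichever clone was left out. Dhcr7, at 125 and 102 against 76 and 65.4 CPM, changed by -0.68 ± 0.18 (adjusted p = 0.0136). Srebf2, the gene of the main sterol factor, read 215 and 190 CPM in WT_mock and 166 and 149 in KO_mock (-0.36 ± 0.09, adjusted p = 0.00882). Scd1 (-0.49), Nsdhl (-0.40) and Elovl6 (-0.38) were called lower, also without overlap. Fasn rose from 821 and 875 to 1260 and 1070 CPM (0.46 ± 0.10, adjusted p = 0.00592). The calls of this comparison leaned on single clones: 3 members were called without the WT_mock clone 5-2, and 5 without either KO_mock clone, 12-1 or 12-3.

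Ebp was the member that rose most in the knockout, from 83.3 and 91.6 to 141 and 132 CPM (0.65 ± 0.16, adjusted p = 0.00892). It lies on chromosome X (8185329 to 8193512, minus strand). Of the 35 genes tested within 1 Mb of it, 17 were called higher and 4 lower in KO_mock, against 18% higher and 19.4% lower over all genes. The Ebp call was lost without clone 5-2 or 12-1. Against KO_mock, KO_ERRb_wt clones had 74.8 and 73 CPM of Ebp (-0.89 ± 0.16, adjusted p = 0.0196), and the 35 genes had a median of -0.76 with 16 lower and 0 higher. A change of Ebp itself and one of the region cannot be told apart.

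With wild-type ERR beta put back into the knockout, few members and few genes in all were called. Ebp was the 1 member called between KO_ERRb_wt and KO_mock (lower), against 1.85% of all genes (0.781% lower, 1.07% higher), and no member was called higher. The median member moved by -0.05. Leaving out any one of the clones 12-1, 12-3, 8-3 or 8-4 left 0 members called, and between 8 and 234 genes in the whole table. Insig1 was 100 and 116 CPM in KO_ERRb_wt, between KO_mock and WT_mock (0.25 ± 0.12 against KO_mock, adjusted p = 0.273). Cyp51 was 183 and 162 CPM, likewise between them (0.29 ± 0.10, adjusted p = 0.138). Fasn was 845 and 857 CPM, within the range of WT_mock, although its difference from KO_mock missed the threshold (-0.45 ± 0.10, adjusted p = 0.0515).

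Against WT_mock, 6 members were lower in KO_ERRb_wt and 0 higher, against 10.3% of all genes called (5.79% lower, 4.49% higher). Of the 27 members off chromosomes 6, 8 and 14, 5 were lower and 0 higher, against 3.93% and 4.68% of the tested genes there. The 6 were Fdft1 (-0.82, on chromosome 14), Insig1 (-0.55), Pmvk (-0.52), Elovl6 (-0.40), Cyp51 (-0.35) and Srebf2 (-0.35). No clones overlapped in these 6. None of the calls held without the WT_mock clone 5-2 or without the KO_ERRb_wt clone 8-4 (0 members called in each case).

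The sterol enzymes Mvk, Pmvk, Lss, Hsd17b7 and Sc5d, and the fatty acid enzyme Acaca, were called lower in each mutant against KO_mock and against KO_ERRb_wt, as were Mvd and Msmo1 on chromosome 8. The comparisons share their reference clones, so these calls are not independent of each other. In the clones themselves, 13 of 30 members (43.3%) had all 6 mutant clones below all 4 clones of KO_mock and KO_ERRb_wt, an order held by 16.9% of the tested genes. Off chromosomes 6, 8 and 14 it was 10 of 27 members against 11.7% of genes. Elovl6 was the 1 member with the 6 mutant clones above the 4, an order held by 15.3% of genes.

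**Figure D2:**
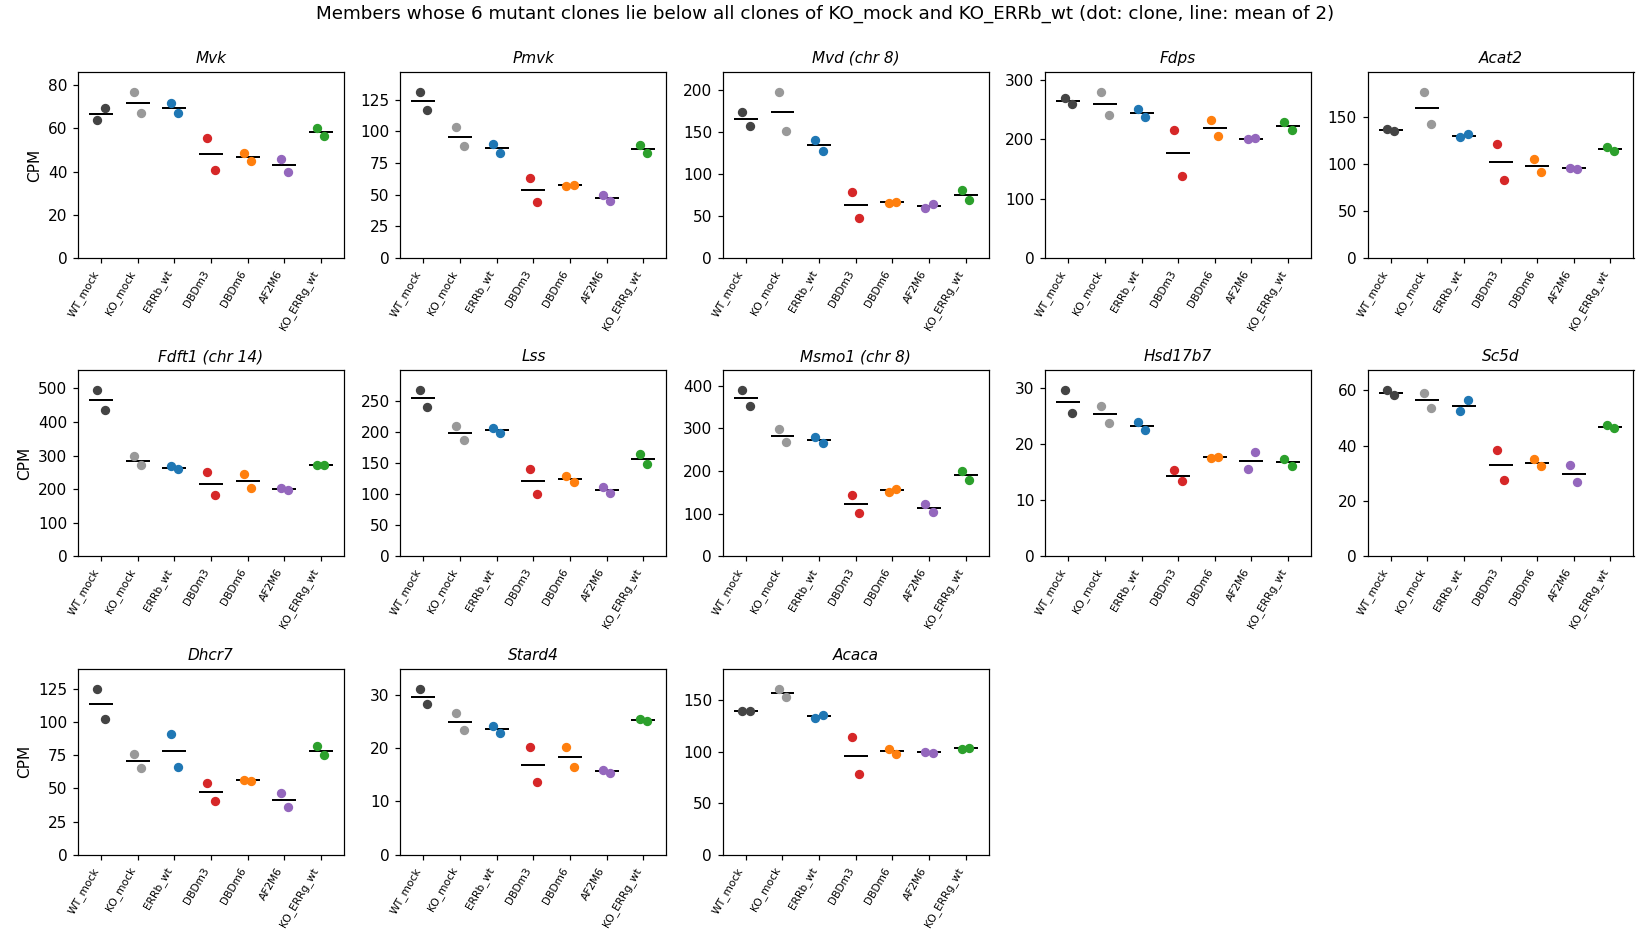
CPM of the 13 members whose 6 mutant clones lie below the 4 clones of KO_mock and KO_ERRb_wt; dots are clones, lines the mean of 2, and axes start at 0. In 9 of the 13, Mvd and Msmo1 on chromosome 8 among them, both KO_ERRg_wt clones also lie below the 4. The share of all tested genes with this order was not counted.

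Pmvk, the kinase that makes mevalonate diphosphate, read 131 and 117 CPM in WT_mock, 103 and 88.7 in KO_mock, 90.3 and 82.5 in KO_ERRb_wt, 63 and 43.8 in KO_ERRb_DBDm3, 57 and 57.8 in KO_ERRb_DBDm6, 49.8 and 44.7 in KO_ERRb_AF2M6, and 89.5 and 83.1 in KO_ERRg_wt. The 6 mutant clones lay below all others, and the ERR gamma clones lay within the range of the KO_mock and KO_ERRb_wt clones. Against KO_mock it fell by 0.84 ± 0.14 in DBDm3, 0.74 ± 0.14 in DBDm6 and 1.02 ± 0.14 in AF2M6 on the log2 scale (adjusted p = 0.00214, 0.00206 and 0.000364). Pmvk lies on chromosome 3 (89459118 to 89469009, plus strand). Mvk, the kinase one step earlier, read 76.9 and 67.1 CPM in KO_mock, 71.9 and 67.3 in KO_ERRb_wt and 40 to 55.7 over the 6 mutant clones. It fell by 0.58, 0.62 and 0.74 in the same order of mutants against KO_mock. Acat2, which joins acetyl-CoA units in the cytosol, was called lower in each mutant against KO_mock (-0.65, -0.70 and -0.74). Without clone 12-1, Mvk and Acat2 were no longer called in DBDm3. Against KO_ERRb_wt, Mvk lost its call in DBDm3 without 8-3 or 9-8 and in DBDm6 without 10-26, and Pmvk in DBDm6 without 8-3.

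Other genes of this branch were called in fewer mutants. Hmgcs1, HMG-CoA synthase, was 484 and 478 CPM in KO_mock, 355 and 371 in DBDm3, 470 and 408 in DBDm6 and 416 and 354 in AF2M6. It was called lower in DBDm3 (-0.41 ± 0.09) and AF2M6 (-0.32 ± 0.09) and not in DBDm6 (-0.13 ± 0.09, adjusted p = 0.245), and the AF2M6 call was lost without clone 12-1, 12-3 or 32-31. Fdps, farnesyl diphosphate synthase, was called lower in DBDm3 alone (-0.55 ± 0.16, adjusted p = 0.0256), a call that was lost without clone 12-1, 12-3 or 9-8. Idi1, the isomerase before it, went the other way: 11.4 and 13.7 CPM in KO_mock, 18.9 and 17.6 in DBDm6 and 18.7 and 16.4 in AF2M6 (0.54 ± 0.15 and 0.49 ± 0.15, adjusted p = 0.0122 and 0.0224). Both Idi1 calls were lost without clone 12-1, that in DBDm6 also without 10-24 and that in AF2M6 without 32-25.

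Lss, which folds squalene epoxide into lanosterol, read 267 and 241 CPM in WT_mock, 209 and 187 in KO_mock, 207 and 198 in KO_ERRb_wt, 141 and 101 in DBDm3, 130 and 120 in DBDm6, 111 and 102 in AF2M6, and 164 and 148 in KO_ERRg_wt. All 6 mutant clones lay below every other clone, with the ERR gamma clones next. Against KO_ERRb_wt it fell by 0.74 ± 0.13, 0.69 ± 0.13 and 0.92 ± 0.13 (adjusted p = 0.00213, 0.00195 and 0.000304). Sc5d, the sterol desaturase near the end of the chain, read 59.9 and 58.3 CPM in WT_mock, 58.9 and 53.7 in KO_mock, 52.4 and 56.3 in KO_ERRb_wt, 38.3 and 27.7 in DBDm3, 35.1 and 32.5 in DBDm6, 32.8 and 26.8 in AF2M6, and 47.5 and 46.2 in KO_ERRg_wt. Again the 6 mutant clones lay below all others and the ERR gamma clones came next. The changes against KO_ERRb_wt were -0.72, -0.68 and -0.87 (adjusted p = 0.00272, 0.00234 and 0.000516), each kept whichever clone was left out.

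Hsd17b7, a reductase of sterol intermediates, read 29.6 and 25.6 CPM in WT_mock, 26.9 and 23.8 in KO_mock, 24 and 22.5 in KO_ERRb_wt, 15.4 and 13.4 in DBDm3, 17.5 and 17.8 in DBDm6, 15.5 and 18.6 in AF2M6, and 17.3 and 16.2 in KO_ERRg_wt. Here the ERR gamma clones fell in the range of the mutants, and it was called lower in KO_ERRg_wt against both references (-0.60 ± 0.12 and -0.47 ± 0.12), the second call being lost without clone 8-3, 14-1-10 or 14-11. In DBDm6 its call against KO_mock was lost without 12-1 and that against KO_ERRb_wt without 8-3, 10-24 or 10-26, and in AF2M6 that against KO_ERRb_wt without 8-3 or 32-25. Dhcr7 read 125 and 102 CPM in WT_mock, 76 and 65.4 in KO_mock, 90.6 and 66.4 in KO_ERRb_wt, 54.2 and 40.2 in DBDm3, 56.4 and 55.8 in DBDm6, 46.5 and 36.3 in AF2M6, and 81.8 and 75 in KO_ERRg_wt. It fell in AF2M6 (-0.77 ± 0.18 against KO_mock, -0.92 ± 0.18 against KO_ERRb_wt) and in DBDm3 (-0.58 and -0.73), while in DBDm6 neither change passed the test (adjusted p = 0.161 and 0.0526). The DBDm3 call against KO_mock was lost without clone 12-1, 12-3 or 9-8, that against KO_ERRb_wt without 8-3 or 9-8, and that of AF2M6 against KO_mock without 12-1 or 32-31. Tm7sf2, a sterol reductase, was called in no comparison of 2 groups (adjusted p = 0.0236 in the F test), and its DBDm3 clones stood far apart (32 and 16.2 CPM).

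Not every sterol enzyme was low. Sqle, squalene epoxidase, an enzyme that limits the rate of the late pathway, was 196 and 170 CPM in KO_mock and between 167 and 220 in the 6 mutant clones, and no comparison called it. Its differences from KO_mock were -0.01 ± 0.10 in DBDm3, 0.15 ± 0.10 in DBDm6 and 0 ± 0.10 in AF2M6. Cyp51 read 142 and 141 CPM in KO_mock, 143 and 155 in DBDm3, 172 and 179 in DBDm6 and 170 and 141 in AF2M6. It was called higher in DBDm6 (0.31 ± 0.10, adjusted p = 0.0218), a call that no fit without one of its 4 clones kept. Nsdhl, which works with Hsd17b7 and Msmo1 on the same intermediates, was likewise higher in DBDm6 (0.38 ± 0.13, adjusted p = 0.0366), and this call was lost without any one of the 4 clones and with scaling that left out chromosomes 6, 8 and 14.

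Of the regulators, neither SREBP gene was called in a mutant. Srebf1 read 125 and 122 CPM in WT_mock, 140 and 123 in KO_mock, 142 and 125 in KO_ERRb_wt, 171 and 125 in DBDm3, 126 and 126 in DBDm6, 132 and 140 in AF2M6, and 156 and 146 in KO_ERRg_wt. Its clones overlapped between most groups, and no comparison was called. Srebf2 read 215 and 190 CPM in WT_mock, 166 and 149 in KO_mock, 172 and 146 in KO_ERRb_wt, 157 and 147 in DBDm3, 166 and 169 in DBDm6, 147 and 145 in AF2M6, and 208 and 201 in KO_ERRg_wt. Its mutant clones stayed within 0.11 (log2) of KO_mock by group mean, while the ERR gamma clones lay in the range of WT_mock. Insig1 read 161 and 156 CPM in WT_mock, 89 and 92.2 in KO_mock, 100 and 116 in KO_ERRb_wt, 88.2 and 115 in DBDm3, 143 and 122 in DBDm6, 108 and 95.4 in AF2M6, and 135 and 138 in KO_ERRg_wt. It was higher in DBDm6 than in KO_mock (0.55 ± 0.12, adjusted p = 0.00406), without overlap and whichever clone was left out. Stard4, a carrier of cholesterol between membranes, was lower in each mutant than in KO_mock (-0.56, -0.45 and -0.68). These calls were lost without 12-1 in each mutant, without 12-3 in DBDm3 and DBDm6, and without 9-8 and 10-26.

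**Figure D3:**
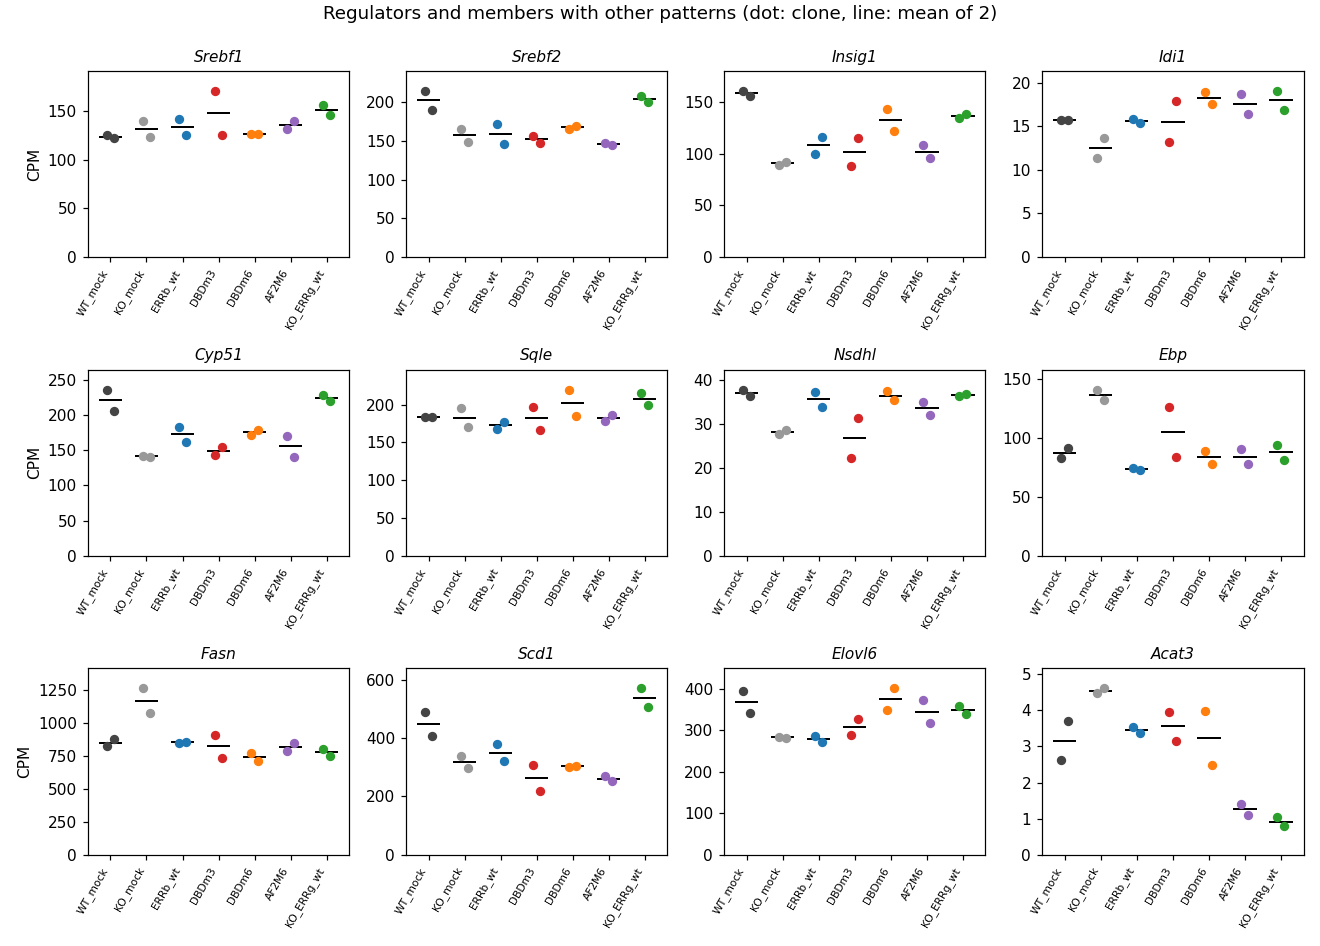
CPM of the regulators Srebf1, Srebf2 and Insig1 and of 9 members whose mutant clones do not lie below both references, by group; dots are clones, lines the mean of 2, and axes start at 0. Srebf2, Cyp51 and Scd1 are high in WT_mock and in KO_ERRg_wt, and Acat3 is low in AF2M6 and KO_ERRg_wt.

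In fatty acid synthesis Acaca fell and Fasn did so against KO_mock but not against KO_ERRb_wt. Acaca read 161 and 153 CPM in KO_mock, 133 and 136 in KO_ERRb_wt, 114 and 78.5 in DBDm3, 103 and 97.4 in DBDm6 and 99.9 and 98.6 in AF2M6. Against KO_ERRb_wt the changes were -0.49 ± 0.12, -0.42 ± 0.12 and -0.44 ± 0.12 (adjusted p = 0.0131, 0.0199 and 0.0154), and each was lost without clone 8-3 or 8-4. Fasn was 710 to 909 CPM in the 6 mutant clones, against 1260 and 1070 in KO_mock and 845 and 857 in KO_ERRb_wt. It was called lower in each mutant against KO_mock (-0.51, -0.66 and -0.52) and in none against KO_ERRb_wt (-0.05, -0.20 and -0.06), the DBDm3 call being lost without clone 12-1. Elovl6, which lengthens palmitate, was 284 and 282 CPM in KO_mock, 350 and 401 in DBDm6 and 372 and 318 in AF2M6. It was higher in DBDm6 (0.41 ± 0.10) and AF2M6 (0.28 ± 0.10, adjusted p = 0.0428), the second not being called with scaling that left out chromosomes 6, 8 and 14 or without clone 12-1, 12-3 or 32-25, and the first not without 10-26.

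Scd1, the stearoyl-CoA desaturase gene, read 488 and 407 CPM in WT_mock, 339 and 298 in KO_mock, 378 and 320 in KO_ERRb_wt, 307 and 217 in DBDm3, 302 and 304 in DBDm6, 269 and 251 in AF2M6, and 570 and 506 in KO_ERRg_wt. The AF2M6 clones lay below KO_mock and those of DBDm3 and DBDm6 overlapped it, and the 1 call among them was AF2M6 against KO_ERRb_wt (-0.43 ± 0.15, adjusted p = 0.0385), lost without clone 8-3, 32-25 or 32-31. Scd2, its more abundant relative, was called in no comparison of 2 groups, though the F test over the 7 groups called it (adjusted p = 0.0368). Fads2, the delta-6 desaturase, was lower in DBDm6 and AF2M6 than in KO_mock (-0.57 ± 0.13 in each), and Fads1 was lower in AF2M6 (-0.26 ± 0.09). The Fads2 calls were lost without clone 12-1 and the Fads1 call without any one of its 4 clones.

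By counts, 15 members were lower and 0 higher in DBDm3 against KO_mock, where 25.7% of all genes were called (13.3% lower, 12.4% higher). In DBDm6 13 were lower and 5 higher, where 41.4% of genes were called (20.6% lower, 20.8% higher). In AF2M6 18 were lower and 2 higher, where 37.1% were called (19.1% lower, 18% higher). The median member moved by -0.40, -0.34 and -0.52, against 0.01, 0 and 0.01 for all tested genes. Acat3 in AF2M6 (-1.85 ± 0.27) and Ebp in DBDm6 (-0.71 ± 0.16) were among the lower calls. Against KO_ERRb_wt the counts were 13 lower and 1 higher in DBDm3 (32.1% of genes called, 16.8% lower and 15.3% higher), 9 lower and 1 higher in DBDm6 (39% called, 20% lower and 19.1% higher) and 17 lower and 1 higher in AF2M6 (43.2% called, 22.8% lower and 20.3% higher). The median member moved by -0.35, -0.18 and -0.41. Off chromosomes 6, 8 and 14, 12, 11 and 15 of 27 members were lower against KO_mock. Of the tested genes there 8.32%, 15.9% and 13.8% were lower. In the same order 0, 5 and 2 members were higher, against 13.5%, 22.5% and 19.7%. Against KO_ERRb_wt 11, 7 and 14 of the 27 were lower, against 11.9%, 14.8% and 17.5%. There 1 was higher in each, against 16.6%, 20.8% and 22.2%. The share of members called lower was above that of all genes in each of these 6 comparisons, and nearest to it in DBDm6 against KO_ERRb_wt (30% against 20%).

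**Figure D4:**
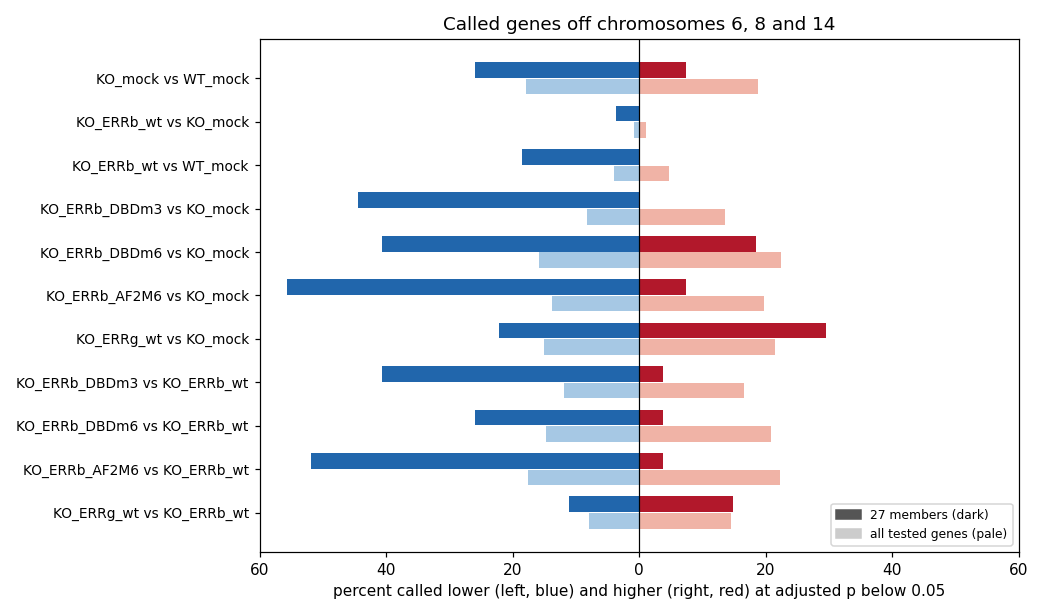
Percent called lower (left) and higher (right) in each comparison among the 27 members off chromosomes 6, 8 and 14 (dark) and the 13192 tested genes there (pale). The dark bar of members called lower is longest in AF2M6 against KO_mock, at 55.6% against 13.8%.

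The 2 DBDm3 clones differed from each other more than the clones of any other group. Clone 9-8 was below 9-6 in 24 of 30 members, with a median gap of -0.44 (log2), while the median gap was -0.08 to -0.16 in the other 6 groups. With only the 2 groups of the comparison in the fit, so that the spread came from these clones, 0 members were called in DBDm3 against KO_mock and 1, Msmo1, against KO_ERRb_wt. Left-out clones moved the counts as well: DBDm3 against KO_mock fell to 8 without 12-1, AF2M6 against KO_mock to 12 without 12-1, and, against KO_ERRb_wt, DBDm3 to 7 without 8-3 and 9 without 8-4, DBDm6 to 6 without 8-3 or 10-26, and AF2M6 to 8 without 8-3 and 11 without 32-31. Hmgcs1, Pmvk, Mvd, Lss, Msmo1, Hsd17b7 and Sc5d were called in DBDm3 against both references whichever clone was left out.

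The 3 members on shifted chromosomes have to be read against their chromosome. Mvd, the decarboxylase that makes isopentenyl diphosphate, lies on chromosome 8 (122433596 to 122443422, minus strand). It read 174 and 157 CPM in WT_mock, 198 and 151 in KO_mock, 141 and 128 in KO_ERRb_wt, 78.9 and 47.7 in DBDm3, 65.8 and 66.8 in DBDm6, 59 and 64.2 in AF2M6, and 81.6 and 69 in KO_ERRg_wt. The 8 clones of the mutants and ERR gamma lay below the 6 others. Against KO_mock its changes were -1.46, -1.40, -1.5 and -1.21 (standard error 0.20 in each), where the 795 tested genes of chromosome 8 had medians of -0.53, -0.49, -0.55 and -0.53. Mvd was thus 0.69 to 0.95 below its chromosome in those 4 groups, and 0.39 below it in KO_ERRb_wt, where its change was not called.

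Msmo1, a methylsterol oxidase on the same chromosome (64718145 to 64733578, minus strand), read 389 and 352 CPM in WT_mock, 298 and 268 in KO_mock, 279 and 266 in KO_ERRb_wt, 143 and 102 in DBDm3, 151 and 158 in DBDm6, 123 and 103 in AF2M6, and 200 and 180 in KO_ERRg_wt. Mutant clones were lowest and the ERR gamma clones came between. Against KO_mock the changes were -1.21, -0.87 and -1.32 in the mutants (standard error 0.14), which is 0.68, 0.38 and 0.77 below the chromosome. In KO_ERRg_wt Msmo1 (-0.58 ± 0.14) was 0.05 below the chromosome's median, and its call was lost without clone 12-1 or 14-11. In KO_mock against WT_mock it fell by 0.39 where the chromosome's median was 0.02, a call that no fit without one of the 4 clones kept. Fdft1, squalene synthase, lies on chromosome 14 (63145151 to 63179578, minus strand) and shares 20.9% of its exon bases with Ctsb on the opposite strand. It read 494 and 435 CPM in WT_mock, 298 and 271 in KO_mock, 268 and 259 in KO_ERRb_wt, 251 and 182 in DBDm3, 245 and 204 in DBDm6, 203 and 196 in AF2M6, and 273 and 273 in KO_ERRg_wt. The fall from WT_mock to KO_mock (-0.71 ± 0.13) was close to the median of the 515 genes of chromosome 14 (-0.61). In the mutants it changed by -0.40, -0.34 and -0.51 against KO_mock, where chromosome 14 had medians of 0.05, 0.05 and 0.06. The DBDm3 call was lost without clone 12-1, 12-3 or 9-8, the AF2M6 call without 12-1 or 32-31, and DBDm6 was not called (adjusted p = 0.0587). Whether a gene's own change or its chromosome's shift set these levels cannot be told apart.

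**Figure D5:**
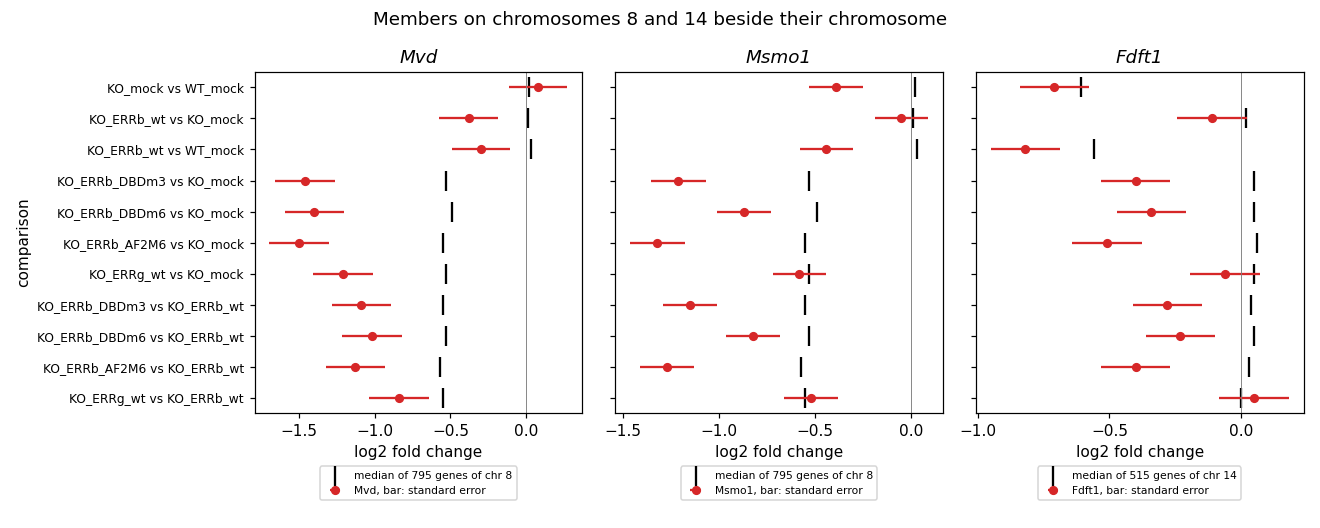
Log2 fold change of Mvd, Msmo1 and Fdft1 in each comparison (red dots, bars are the standard error) beside the median of the tested genes of the same chromosome (black ticks). In the mutants against KO_mock, Mvd and Msmo1 lie left of the ticks, and Fdft1 in KO_mock against WT_mock lies near its tick.

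In the ERR gamma clones, 8 members were higher and 8 lower than in KO_mock, where 38.3% of all genes were called (20% higher, 18.3% lower), and the median member moved by -0.07. Off chromosomes 6, 8 and 14, 8 of 27 members were higher and 6 lower, against 21.4% and 15% of the tested genes there. Higher were Scd1 (0.76 ± 0.15, adjusted p = 0.00267), Cyp51 (0.67 ± 0.10), Insig1 (0.59 ± 0.12), Idi1 (0.52 ± 0.15), Srebf2 (0.38 ± 0.09) and Nsdhl (0.38 ± 0.13) at the top, none with overlapping clones. Cyp51 was 228 and 220 CPM in KO_ERRg_wt and 236 and 206 in WT_mock, and Scd1 was 570 and 506 against 488 and 407. Scd1, Cyp51 and Insig1 were called whichever clone was left out. Lowest were Acat3 (-2.30 ± 0.30), Mvd (-1.21), Ebp (-0.64), Hsd17b7 (-0.60), Acaca (-0.60) and Fasn (-0.59). The number called fell to 10 without clone 12-1, 14-1-10 or 14-11. The calls of Idi1, Srebf2 and Nsdhl were each lost without 14-1-10. With 1 library each, the ERR gamma clones totalled 25103562 and 27875142 counts, against 44467194 to 54105869 for the other clones.

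Acat3, a thiolase gene next to Acat2 on chromosome 17, had the widest span of any member and the fewest reads (1894 in all). It read 2.62 and 3.71 CPM in WT_mock, 4.48 and 4.61 in KO_mock, 3.55 and 3.37 in KO_ERRb_wt, 3.96 and 3.16 in DBDm3, 3.98 and 2.5 in DBDm6, 1.4 and 1.11 in AF2M6, and 1.04 and 0.789 in KO_ERRg_wt. The AF2M6 and ERR gamma clones lay below all others, and the changes against KO_ERRb_wt were -1.46 ± 0.27 and -1.91 ± 0.30 (adjusted p = 0.00133 and 0.00104). On its opposite strand Tcp1 covers 28.7% of its exon bases, though reads were counted by strand. The sequence of Acat3 is close to that of Acat2, so the split of reads between Acat2 and Acat3 is uncertain. Against KO_ERRb_wt, ERR gamma clones had 4 members higher and 5 lower, where 25.4% of genes were called (13.5% higher, 11.9% lower). Off chromosomes 6, 8 and 14, 4 of 27 were higher and 3 lower, against 14.5% and 8% of the tested genes there. The higher were Scd1 (0.63 ± 0.15), Cyp51 (0.38), Srebf2 (0.36) and Elovl6 (0.33). The lower were Acat3, Mvd (-0.84), Msmo1 (-0.52), Hsd17b7 (-0.47) and Acaca (-0.38), of which Mvd and Msmo1 lie on chromosome 8. Leaving out 8-3, 8-4, 14-1-10 or 14-11 brought the 9 calls down to 4, 3, 2 and 2, and Acat3 alone was called in each case.

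Other genes of the pathway, from lists of related steps, moved in part with the members and in part the other way. Unlike the members, these lists were not split by chromosome, and their counts include any genes on the shifted chromosomes. The part of the lower and higher calls below that follows a chromosome's shift was not tested. Of 15 genes of sterol sensing and efflux, 5, 5 and 5 were higher and 2, 3 and 4 lower in DBDm3, DBDm6 and AF2M6 against KO_mock. Over all genes 12.4%, 20.8% and 18% were higher and 13.3%, 20.6% and 19.1% lower in these comparisons. The lower counts of this list (13.3%, 20% and 26.7%) are thus at or near the background, while the higher counts (33.3% in each) are above it. Scap, the SREBP escort, was lower in each (-0.51 ± 0.09, -1.14 ± 0.10 and -0.73 ± 0.09) and in KO_ERRg_wt (-1.15 ± 0.10), and higher in KO_mock than in WT_mock (0.54 ± 0.09). Npc1, which exports cholesterol from lysosomes, was higher in the 3 mutants (0.38, 0.47 and 0.43) and in KO_ERRg_wt (0.74). Among 10 genes that supply acetyl-CoA, citrate and NADPH, 3 (30%) were lower in each mutant against KO_mock, where 13.3%, 20.6% and 19.1% of all genes were. These were Me1, malic enzyme (-1.01, -0.82 and -1.23), Aacs (-0.78, -0.87 and -0.72) and Idh1 (-0.44, -0.33 and -0.40). Slc25a1, the mitochondrial citrate carrier, was higher in each (0.38, 0.91 and 0.77). Of 20 genes of fatty acid elongation and activation, 5, 5 and 6 were lower (25%, 25% and 30%) and 2, 2 and 0 higher against KO_mock. Against KO_ERRb_wt 11, 8 and 10 were lower (55%, 40% and 50%, against 16.8%, 20% and 22.8% of all genes). There 1, 2 and 0 were higher, against 15.3%, 19.1% and 20.3% of all genes. Acacb was among the lower against both references (-0.62, -0.68 and -1.03 against KO_mock). The 11 genes of the isoprenoid branches had at most 3 lower in any comparison, and their median lay between 0.01 and 0.13. The 3 were in DBDm6 against KO_mock (27.3%, against 20.6% of all genes).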

How the data were processed

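Total RNA from 26 libraries was sequenced with a stranded, ribosomal-RNA-depleted kit (single-end reads), per the labels' protocols. The authors deposited 1 table of read counts per gene, made with featureCounts 2.0.1 on UCSC mm10 exons, counted by strand and with overlapping features kept, per the file headers. The submitters' processing notes name STAR 2.7.8a and give featureCounts as 2.0.10. Both libraries made from one clone were added together, which left 14 clones. edgeR 4.0.16 (R 4.3.3) tested genes passing filterByExpr by its quasi-likelihood test with TMM scaling, all 7 groups in 1 fit (7 residual degrees of freedom), Benjamini-Hochberg adjustment over 15238 genes and calls at an adjusted p under 0.05. It was tested on simulated data. Nothing says that clones of a group were made independently, so p-values measure the spread between these clones. Alternatives used DESeq2 1.42.0, limma 3.58.1, other scalings and filters, and left-out clones. Members and lists were chosen with earlier results of these data known. All clones are given for the 8 members off chromosomes 6, 8 and 14 with the smallest F-test p, for 3 regulators and for members on those chromosomes. In each comparison at most the 6 highest and 6 lowest called members, and at most 4 called genes of each related list, were named by rule; other members were added by role after their values were seen. Some genes of the pathway are not reported here.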

Additional observations from a re-analysis of the deposited data

Results flagged for a closer look

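In 6 of 180 sets of 4 libraries (a member in 1 of 6 groups), 1 library stood apart from the other 3 by Dixon's gap test, which flags about 5% of sets by chance. Library 32-25_rep2 of KO_ERRb_AF2M6 was high in 3 of them, with 97.8 CPM of Acat2 (94.9 to 95.1 in the others), 17 of Stard4 (15.1 to 15.4) and 152 of Fads1 (131 to 134). Acat3 was low in library 32-31_rep2 of the same group, at 0.788 CPM against 1.37 to 1.43. Mvk was low in library 8-4_rep2 of KO_ERRb_wt, at 62.8 CPM against 71.7 to 72.2. Hsd17b7 was high in library 9-6_rep1 of KO_ERRb_DBDm3, at 16.8 CPM against 13.3 to 13.8.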

How the results depend on the processing

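Over 3570 alternative values of single fold changes, 0 reversed a call, 247 took a call below the threshold and 143 brought one past it. Leaving out each clone in turn leaves an arm with 1 clone, assumed to vary like the other groups. The members called then ranged from 3 to 9 in KO_mock against WT_mock (11 with all clones), 0 to 0 in KO_ERRb_wt against KO_mock (1), 0 to 5 in KO_ERRb_wt against WT_mock (6), 8 to 22, 12 to 17, 12 to 18 and 10 to 12 in DBDm3, DBDm6, AF2M6 and ERR gamma against KO_mock (15, 18, 20 and 16), and 7 to 17, 6 to 10, 8 to 13 and 2 to 4 against KO_ERRb_wt (14, 10, 18 and 9). The F test ranged from 23 to 29 (26). With only the 2 groups compared in the fit, the count was 19 in KO_mock against WT_mock, 5 in KO_ERRb_wt against KO_mock, 0 in DBDm3 against KO_mock, 1 in DBDm3 against KO_ERRb_wt and 16 in ERR gamma against KO_ERRb_wt; the cause was not tested. For KO_ERRb_wt against KO_mock it was 2 with DESeq2, with RLE size factors, without the low-count filter and with TMM scaling that left out chromosomes 6, 8 and 14, and 3 with limma-voom. For KO_ERRb_wt against WT_mock limma-voom gave 11.

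Library numbers showed no pairing common to all clones (median correlation 0.00937 over 66 pairs of clones, 15 over 0.1). The correlations ran from -0.194 to 0.535, and a pairing among some of the clones was not tested. With the number as a replicate block in limma-voom, 14, 3, 9, 16, 19, 22, 18, 15 and 18 members were called, in the order KO_mock against WT_mock, KO_ERRb_wt against KO_mock and WT_mock, the 3 mutants against KO_mock and the 3 against KO_ERRb_wt, and 27 in the F test. Without libraries numbered in pairs, ERR gamma could not enter that fit.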
